A study of Mus musculus with 14 samples.

Results

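MicroRNAs (miRNAs) of the clusters that join miR-99 or miR-100 with miR-125 were examined in the corpus callosum of mice fed cuprizone (CPZ), during the loss and the return of myelin. Cuprizone is a copper chelator that kills oligodendrocytes when it is fed to mice, and myelin is rebuilt when it is withdrawn. The members were the 5 mature miRNAs whose array name was mmu-miR-99a, mmu-miR-99b, mmu-miR-100, mmu-miR-125a-5p or mmu-miR-125b-5p, of 566 mouse miRNAs on the array. The rule that chose them used names alone, though earlier results of these data were known when it was set. The groups were 4 untreated controls on normal diet, 4 mice given cuprizone for 4 weeks (4wd), 4 mice with 2 further days of regular diet (2dr) and 2 mice with 2 further weeks of regular diet (2wr). Cuprizone was mixed into powdered chow at 0.2 to 0.4%. The labels give all mice as male, while the paper leaves their sex unstated, and the labels name no strain or genotype. Each array held the RNA of the dissected corpus callosum of 1 mouse, the callosal white matter as a whole, with all its cell types.

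A miRNA is a short RNA that guides silencing proteins to messenger RNAs, mainly by pairing through its seed, bases 2 to 8. The genes of the miR-99 and miR-100 family lie on the same strand as a let-7 gene and a miR-125 gene, in an old genomic arrangement that many animals share, and the miRNAs of a cluster can be cut from one primary transcript. The miR-99 and miR-100 family is known for repressing the growth kinase mTOR, miR-125 for its roles in neural differentiation and blood stem cells, and let-7 as a marker of differentiated cells.

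The mature sequences are shown because they set which members share a seed and how few bases separate them. They are from RefSeq (GRCm38.p6), 5′ to 3′, with the seed in capitals, and the array names without an arm were taken as the 5p arm.
miR-99a: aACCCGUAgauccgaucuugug
miR-100: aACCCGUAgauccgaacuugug
miR-99b: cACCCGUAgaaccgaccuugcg
miR-125a-5p: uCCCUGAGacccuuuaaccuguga
miR-125b-5p: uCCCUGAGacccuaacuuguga

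The sequences fall into 2 seed groups. The seed ACCCGUA is held by miR-99a, miR-100 and miR-99b, and by no other mature mouse miRNA of the RefSeq table. The seed CCCUGAG is held by miR-125a-5p and miR-125b-5p, and also by miR-351, miR-6367 and miR-6394, of which the array carries miR-351. Counted from 1 at the 5′ end, miR-99a and miR-100 differ by 1 substitution, U16A, and are identical at 21 of 22 bases. From miR-99a to miR-99b there are 4 substitutions, A1C, U11A, U16C and U21C. The pair miR-125a-5p and miR-125b-5p share their first 13 bases and then diverge, with lengths of 24 and 22 bases. How far an array probe tells miR-99a from miR-100, or miR-125a-5p from miR-125b-5p, was not tested.

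The 3 let-7 partners are shown for the same reason, since they are compared with the members further on and also differ by single bases.
let-7a: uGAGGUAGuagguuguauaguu
let-7c: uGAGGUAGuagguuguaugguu
let-7e: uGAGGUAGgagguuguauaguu

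From let-7a, let-7c differs by A19G and let-7e by U9G. In GRCm38.p6, all 9 hairpin genes of the 3 clusters lie on the plus strand. The cluster of Mir99a, Mirlet7c-1 and Mir125b-2 covers chr16:77598936-77646339, with 656 bases between the first pair of hairpins and 46528 between the second. The cluster of Mir100, Mirlet7a-2 and Mir125b-1 covers chr9:41531425-41582002, within the annotated host gene Mir100hg, with gaps of 5211 and 45114 bases. The cluster of Mir99b, Mirlet7e and Mir125a covers only chr17:17830194-17830879, within Spaca6, with gaps of 98 and 367 bases. Mature miR-125b-5p is made from both chr9:41581940-41581961 and chr16:77646279-77646300, and let-7a and let-7c also have genes outside these clusters. A ratio of 2 of these miRNAs is thus not a ratio of products of a single transcript, except for those of the chromosome 17 cluster, each of which has 1 gene. The array was designed on an older build (mm9), and its coordinates were not used here.

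The hairpin of miR-125a and 1 of the hairpins of miR-125b are shown with both mature arms in capitals, because the array also carries the opposite arms.
Mir125a: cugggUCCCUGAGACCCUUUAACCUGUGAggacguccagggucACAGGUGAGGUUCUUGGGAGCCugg
Mir125b-1: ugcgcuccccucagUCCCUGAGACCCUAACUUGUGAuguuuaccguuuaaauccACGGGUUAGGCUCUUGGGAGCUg

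The signal of a miRNA is its background-subtracted brightness in linear units, summed over its probes by the image software. Summed over the mouse miRNAs it lay between 85417 and 173924 in control, 50187 and 90452 in 4wd, and 45664 and 139285 in 2dr, and it was 72411 and 129989 on the 2wr arrays. Levels below are the log2 of a miRNA's signal over the 75th percentile of the array, computed on the 170 miRNAs that every array detected. The arrays lay on 2 slides with arrays of every group on each (slide 1, 8 arrays; slide 2, 6 arrays). Control, 4wd and 2wr arrays were split evenly, but 3 of 4 2dr arrays lay on slide 1. Since replicates are given only as separate samples, p-values measure the spread between these arrays. Levels of different miRNAs are not compared, because each has its own probes.

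All 5 members were detected on all 14 arrays, and none of their spots was saturated. Their summed signals ran from 2947 to 12282 for miR-125b-5p, 225 to 1107 for miR-99a, 110.2 to 1004 for miR-100, 146 to 718 for miR-125a-5p and 51.1 to 235 for miR-99b. The slide moved each member. On slide 2, miR-99a was lower by a mean log2 difference of -0.47 over the 4 groups, and so was miR-100, by -0.47. The other 3 were higher there, miR-125a-5p by 0.51, miR-99b by 0.34 and miR-125b-5p by 0.25. The slide difference was therefore about as large as the differences between groups, and within-slide differences are given for part of the comparisons.

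**Figure D1:**
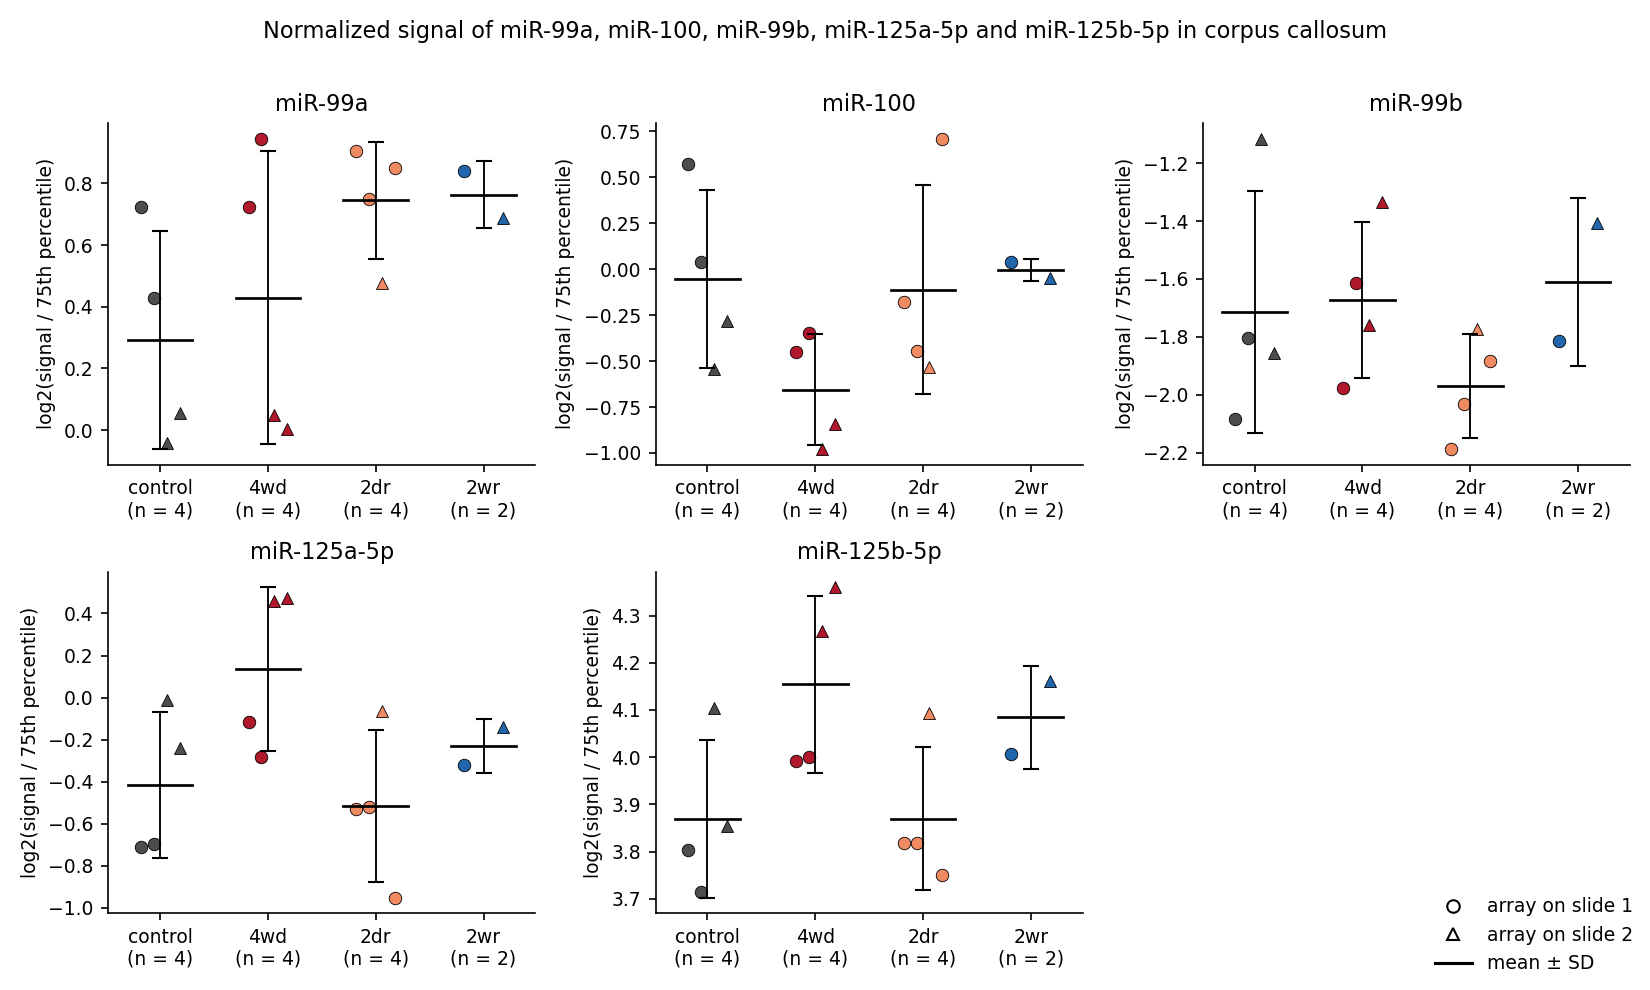
Level of each member on each array, as log2 of signal over the array's 75th percentile (y axis), by group (x axis). Circles are arrays of slide 1 and triangles of slide 2, and bars give the mean ± SD. Within each slide miR-100 of 4wd lies below control, as 8% of all tested miRNAs do. There miR-125a-5p and miR-125b-5p of 4wd lie above control, as 13.3% do.

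The mean level of miR-100 was lowest after 4 weeks of cuprizone. Its levels were 0.57, 0.04, -0.55 and -0.28 on the 4 control arrays and -0.45, -0.35, -0.98 and -0.84 on the 4wd arrays. On the 2dr arrays they were -0.18, -0.45, -0.53 and 0.71, and on the 2wr arrays 0.04 and -0.05. Replicate 4 of 2dr stood far above the other 2dr arrays and was the highest of all 14. Group means ± SD were -0.65 ± 0.30 in 4wd (n = 4), -0.11 ± 0.57 in 2dr (n = 4), -0.05 ± 0.48 in control (n = 4) and -0.0038 ± 0.06 in 2wr (n = 2), and each group overlapped with the next in this order.

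Against control, miR-100 of 4wd differed by -0.60 on the log2 scale (SE 0.31, 95% interval -1.27 to 0.07, limma, adjusted p = 0.553). The sign was kept under each alternative, with values from -1.57 without scaling to -0.35 under normexp. It lay at rank 21 from the lowest of the 225 miRNAs tested. In the exact two-sided permutation test over the arrays, p was 0.114, where the smallest p that 4 against 4 allow is 0.0286. The groups overlapped because control replicate 3, on slide 2, lay at -0.55. On both slides, each 4wd array lay below every control array of its slide, which 8% of all tested miRNAs did too, and the difference was -0.70 on slide 1 and -0.50 on slide 2. With slide as a block in limma, the adjusted p was 0.230. Without control replicate 1 the difference was -0.39, and without control replicate 3 it was -0.76. Both 2wr arrays lay above all 4wd arrays, by 0.65 on average (SE 0.38, limma, adjusted p = 0.941). The exact p of that difference was 0.133, the smallest that 2 against 4 can give, and 4.89% of the tested miRNAs were likewise higher without overlap.

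The near-identical miR-99a had its lowest mean in control. Its levels were 0.72, 0.43, -0.04 and 0.05 in control and 0.72, 0.94, 0.05 and 0.0026 in 4wd. In 2dr they were 0.90, 0.75, 0.48 and 0.85, and in 2wr 0.84 and 0.69. Control and 4wd each split by slide, with the first pair of arrays high and the second low, while 2dr and 2wr lay toward the upper end. In order, the means ± SD were 0.29 ± 0.35 in control (n = 4), 0.43 ± 0.48 in 4wd (n = 4), 0.75 ± 0.19 in 2dr (n = 4) and 0.76 ± 0.11 in 2wr (n = 2), each group overlapping with the next.

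For miR-99a the difference from control was 0.14 in 4wd (SE 0.26, limma, adjusted p = 0.957), with 0.26 on slide 1 and 0.02 on slide 2. In 2dr it was 0.45 (SE 0.26, limma, adjusted p = 0.437), with an exact permutation p of 0.0571, and 3 of 4 arrays lay above all controls. Within slides it was 0.26 on slide 1 and 0.47 on slide 2, and each 2dr array lay above every control array of its slide, as did 5.33% of the tested miRNAs. The 2 slides were unevenly used in 2dr, and with slide as a block the difference was 0.32 (limma, adjusted p = 0.316). In 2wr the difference from control was 0.47 (SE 0.31, limma, adjusted p = 0.996).

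The third member of the seed group, miR-99b, did not pass the test in any comparison. Levels were -2.09, -1.80, -1.12 and -1.85 in control, -1.98, -1.61, -1.76 and -1.34 in 4wd, -2.19, -2.03, -1.77 and -1.88 in 2dr, and -1.82 and -1.41 in 2wr. Control replicate 3 was the highest of the 14 arrays. Means ± SD ran from -1.97 ± 0.18 in 2dr (n = 4) through -1.71 ± 0.42 in control (n = 4) and -1.67 ± 0.27 in 4wd (n = 4) to -1.61 ± 0.29 in 2wr (n = 2), with overlap at every step. The difference from control was 0.04 in 4wd (SE 0.24, limma, adjusted p = 0.981), -0.25 in 2dr (SE 0.24, limma, adjusted p = 0.556) and 0.10 in 2wr (SE 0.29, limma, adjusted p = 0.996). On slides 1 and 2 it was 0.15 and -0.06 in 4wd, -0.09 and -0.29 in 2dr, and 0.13 and 0.08 in 2wr.

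Of the second seed group, miR-125a-5p had its highest mean in 4wd. Its levels were -0.71, -0.70, -0.0097 and -0.24 in control and -0.12, -0.28, 0.46 and 0.47 in 4wd. In 2dr they were -0.53, -0.52, -0.06 and -0.95, and in 2wr -0.32 and -0.14. Here the lowest of all 14 arrays was replicate 4 of 2dr, the array on which miR-100 was highest. In order, the means ± SD were -0.52 ± 0.36 in 2dr (n = 4), -0.42 ± 0.35 in control (n = 4), -0.23 ± 0.13 in 2wr (n = 2) and 0.13 ± 0.39 in 4wd (n = 4), each group overlapping with the next.

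Against control, miR-125a-5p of 4wd differed by 0.55 (SE 0.26, 95% interval -0.02 to 1.11, limma, adjusted p = 0.504), at rank 204 from the lowest of 225. The exact permutation p was 0.143. The difference was 0.51 on slide 1 and 0.59 on slide 2, and each 4wd array lay above every control array of its slide, as 13.3% of the tested miRNAs did. With slide as a block, limma gave an adjusted p of 0.142. Without any scaling between arrays the sign turned to -0.42, while the median of all tested miRNAs stood at -0.93. In 2dr the difference from control was -0.10 (SE 0.26, limma, adjusted p = 0.846) and in 2wr 0.18 (SE 0.32, limma, adjusted p = 0.996). On slides 1 and 2 it was 0.04 and 0.06 in 2dr, of the other sign, and 0.38 and -0.01 in 2wr.

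Its seed partner miR-125b-5p also had its highest mean in 4wd, and the smallest SD of the 5 members in control, 4wd and 2dr. Levels were 3.80, 3.71, 4.10 and 3.86 in control, 3.99, 4.00, 4.27 and 4.36 in 4wd, 3.82, 3.82, 4.09 and 3.75 in 2dr, and 4.01 and 4.16 in 2wr. Only control replicate 3 reached into the range of 4wd. Means ± SD were 3.87 ± 0.17 in control (n = 4), 3.87 ± 0.15 in 2dr (n = 4), 4.08 ± 0.11 in 2wr (n = 2) and 4.15 ± 0.19 in 4wd (n = 4), and each group overlapped with the next. In 4wd the difference from control was 0.29 (SE 0.17, limma, adjusted p = 0.553), with an exact permutation p of 0.0857. It was 0.24 on slide 1 and 0.33 on slide 2. Again each 4wd array lay above every control array of its slide, as 13.3% of the tested miRNAs did. The direction was not kept under quantile normalization (-0.07), normexp background correction (-0.23) or without scaling (-0.69). In 2dr the difference was 0.00070 (SE 0.17, limma, adjusted p = 0.997) and in 2wr 0.22 (SE 0.21, limma, adjusted p = 0.996).

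No member was called in any comparison, at a Benjamini-Hochberg adjusted p under 0.05 in limma and at least 2-fold. In 4wd against control 0.444% of the 225 tested miRNAs were called, in 2dr against control 0.889%, and in 2wr against control and 2wr against 4wd 0%. The overall limma test over the 4 groups called 0 of 5 members and 0.444% of all. At an unadjusted p under 0.05, 0 of 5 members passed in every comparison, against 10.2% of all tested miRNAs in 4wd, 12% in 2dr, 0.889% in 2wr and 4.89% in 2wr against 4wd. The methods' own test, analysis of variance with Tukey comparison, also called 0 of 5 in each.

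The median log2 difference of the 5 members from control was 0.14 in 4wd, beside 0.03 over all tested miRNAs, with 4 of 5 members above 0. Under normexp it was -0.031 beside 0.83, with 2 of 5 above 0 and 5 of 5 below the median of all, and without scaling -0.84 beside -0.93, with 0 of 5 above 0. In 2dr it was -0.06 beside -0.25, with 2 of 5 above 0 (0.22 beside 0.03 and 5 of 5 with the percentile over all mouse miRNAs). In 2wr it was 0.18 beside -0.08, with 5 of 5 above 0 (-0.23 beside -0.49 and 1 of 5 without scaling). Between 2wr and 4wd it was 0.06 beside -0.11. The 3 comparisons with control share the control arrays. In 4wd the members spread over most of the ranking, from miR-100 near its lower end to miR-125a-5p near its upper end, and not as a block.

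**Figure D2:**
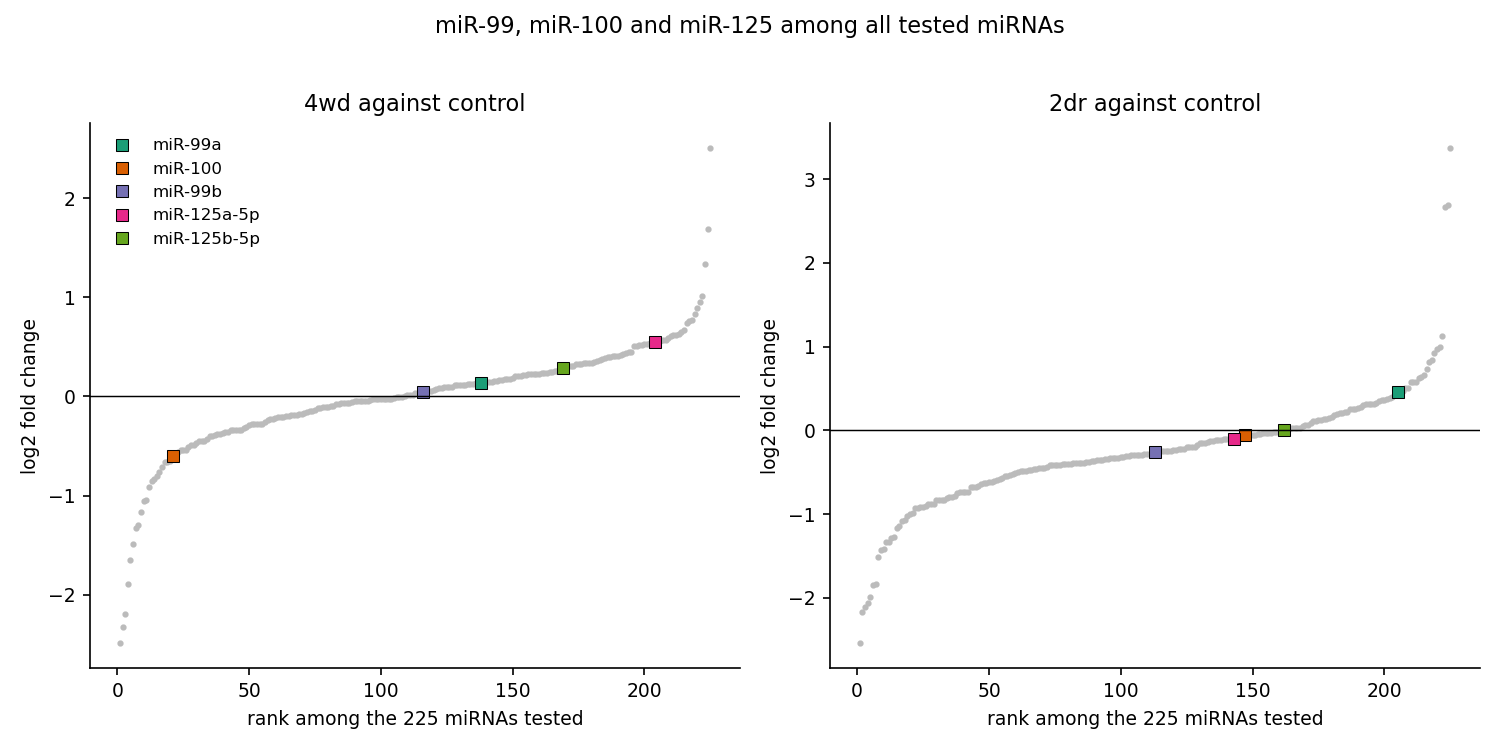
Log2 fold change (y axis) of the 225 tested miRNAs in rank order (x axis), in 4wd (left) and 2dr (right) against control, with the 5 members marked by squares. In 4wd miR-100 stands at rank 21 and miR-125a-5p at rank 204; in 2dr miR-99a stands at rank 205 and the other 4 between ranks 113 and 162.

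The let-7 partners had higher mean levels in 4wd than in control. Levels of let-7e were 1.59, 1.29, 0.93 and 1.31 in control and 2.31, 1.90, 1.62 and 1.82 in 4wd, which do not overlap. The difference of 0.63 (SE 0.22, limma, adjusted p = 0.402) had an exact permutation p of 0.0286, the smallest possible, and 6.22% of all tested miRNAs were higher without overlap. For let-7c the difference was 0.51 (SE 0.24, limma, adjusted p = 0.484) and for let-7a 0.45 (SE 0.25, limma, adjusted p = 0.553). On each slide every 4wd array lay above every control array for all 3 partners, as for 13.3% of all tested miRNAs. None of the 3 was called. Without scaling the signs turned (let-7e -0.34, let-7c -0.46, let-7a -0.52), and under normexp they did for let-7a (-0.10) and let-7c (-0.041) but not for let-7e (0.10).

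**Figure D3:**
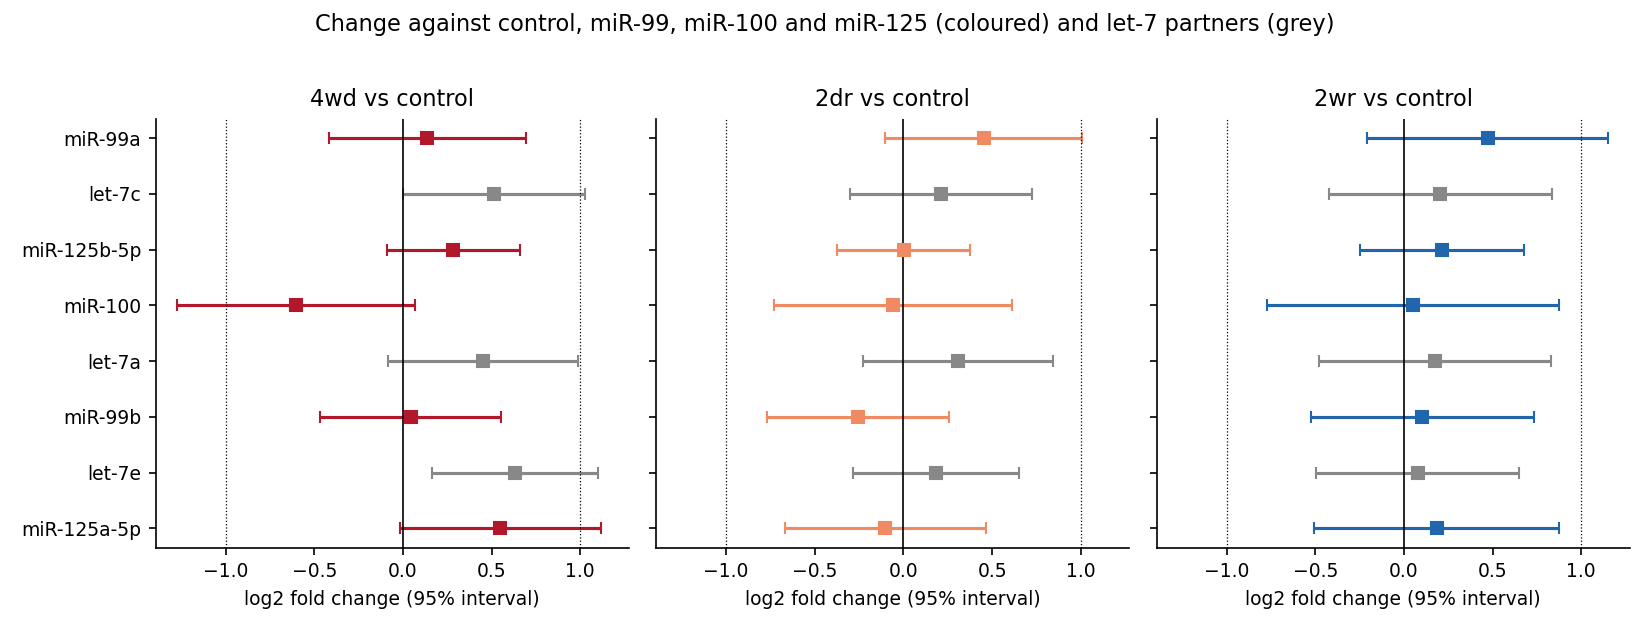
Log2 fold change against control with its 95% limma interval (x axis) for the members in colour and the let-7 partners in grey, ordered by cluster; dotted lines mark 2-fold. In 4wd miR-100 is at -0.60, left of 0, while its cluster partners let-7a (0.45) and miR-125b-5p (0.29) are right of it.

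Whether members of a cluster moved apart was asked from the log2 ratio of their signals within an array. Dividing an array by a single factor does not change this ratio, but quantile normalization can. Under quantile normalization the 4wd difference from control was -0.71 for miR-100 and 0.014 for let-7a. For miR-99a it was 0.093, for let-7c 0.12 and for miR-125b-5p -0.066. A ratio is given as the percent of one signal over the other, which reflects the probes as well as the amounts, so only its change between arrays is read. For 6 pairs in 4 comparisons, 24 exact permutation tests were run. None had a Benjamini-Hochberg adjusted p under 0.05, and the smallest was 0.4.

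The ratio that differed most was that of miR-100 to let-7a. The signal of miR-100 was 8.74, 7.80, 7.12 and 6.63% of that of let-7a on the control arrays and 3.09, 4.21, 3.82 and 3.50% on the 4wd arrays. It was 4.83, 4.49, 5.76 and 9.31% on the 2dr arrays and 6.07 and 7.86% on the 2wr arrays. The highest 4wd array lay below the lowest control array, and so did 3 of 4 2dr arrays, replicate 4 being the exception. For the count in 2dr no share of all pairs of miRNAs was computed. In 4wd the ratio was 2.07-fold lower, a log2 difference of -1.05, with an exact permutation p of 0.0286 (the smallest possible) and an adjusted p of 0.4. It was -1.19 on slide 1 and -0.91 on slide 2, and -1.12 to -0.97 with single arrays left out. With each miRNA read from 1 of its 2 probes, the ratio was lower without overlap in 4 of 4 probe pairs, by -1.31 to -0.97, a comparison added after the data had been seen. Of all 14365 pairs of the 170 miRNAs detected on all arrays, 8.58% had a ratio that did not overlap between 4wd and control, in either direction. Normexp background correction shrank the difference to -0.25.

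The same ratio was higher in 2wr than in 4wd by 0.93, without overlap, with an exact permutation p of 0.133 that is the smallest possible. In 14.4% of all pairs of miRNAs the ratio did not overlap between these groups. Against control, the 2wr difference was -0.13 (exact permutation p = 0.667). In 2dr it was -0.37 (exact permutation p = 0.2), and -0.59 without replicate 4.

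**Figure D4:**
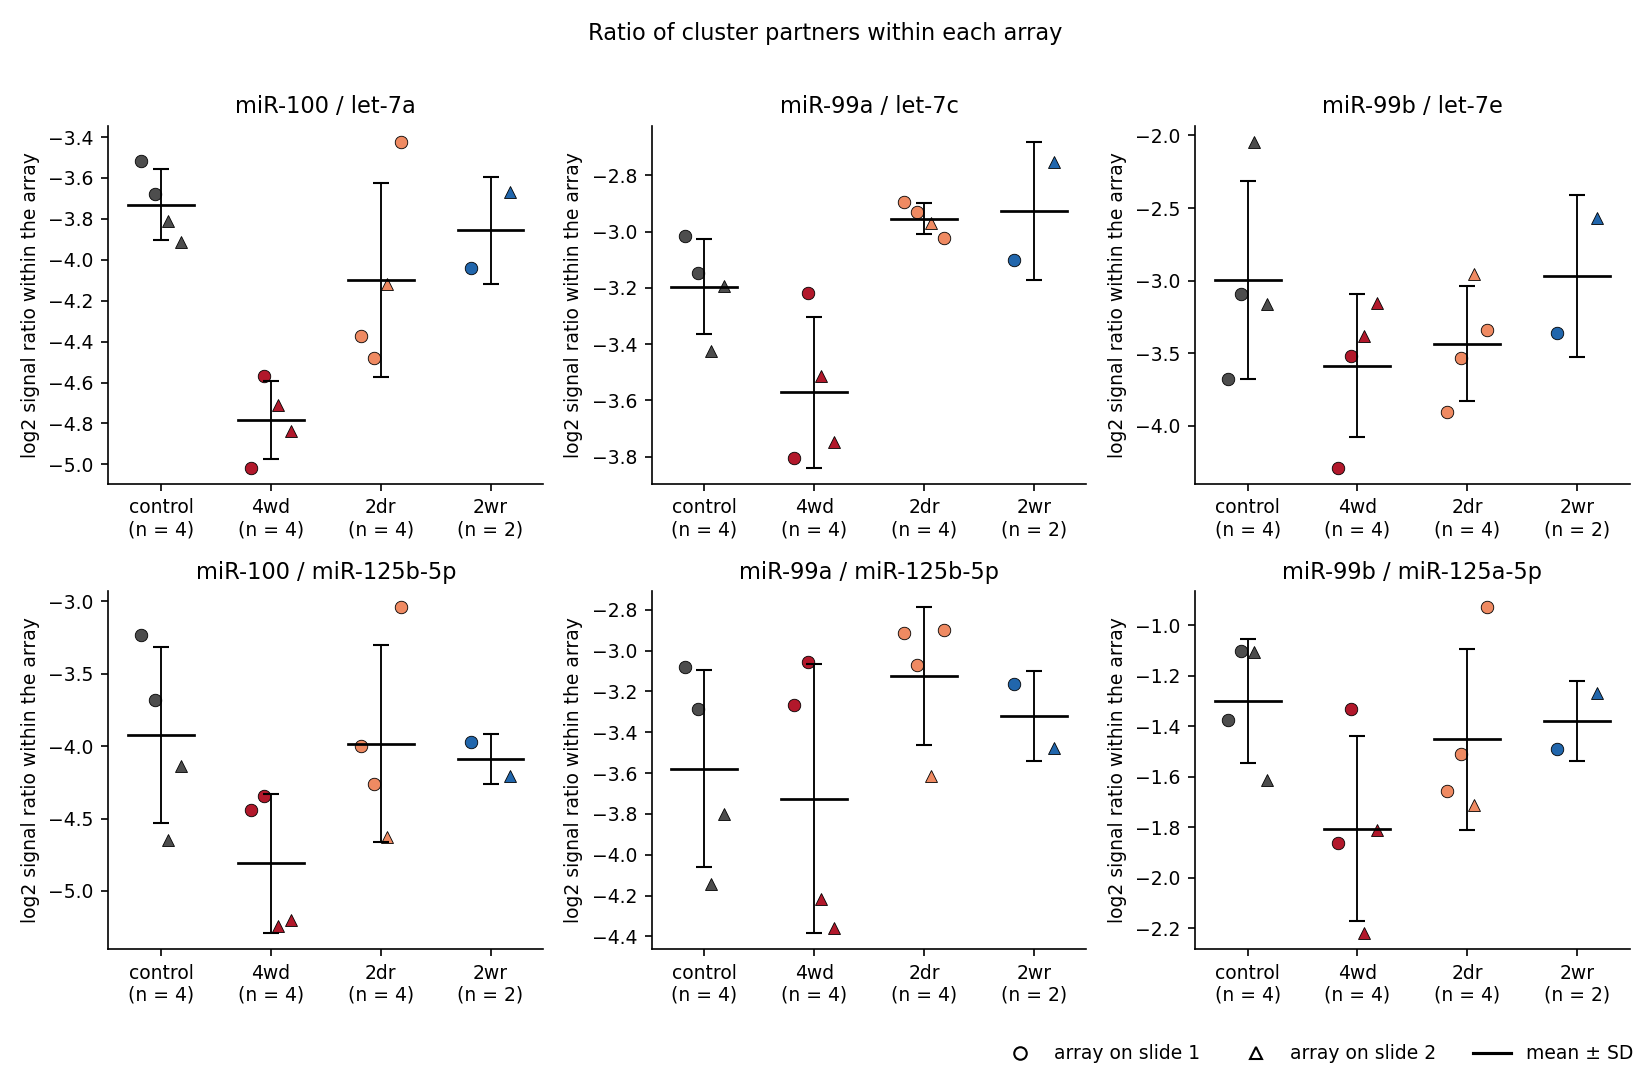
Log2 ratio of the signals of 2 miRNAs of a cluster within each array (y axis), by group (x axis); circles are slide 1, triangles slide 2, bars the mean ± SD. For miR-100 over let-7a every 4wd array lies below every control array, and for the other 5 pairs the 4wd and control arrays overlap.

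Against miR-125b-5p, the distal member of its cluster, the signal of miR-100 was 10.7, 7.82, 3.99 and 5.68% in control and 4.60, 4.92, 2.64 and 2.72% in 4wd. The groups overlapped, while on both slides each 4wd array lay below every control array, and 17.1% of all pairs of miRNAs were likewise separated one way on both slides. The log2 difference was -0.89 (exact permutation p = 0.0857, adjusted 0.4), -0.94 on slide 1 and -0.83 on slide 2. Under normexp it was -0.12. Read from single probes, it was lower without overlap in 1 of 4 probe pairs, by -1.14 to -0.80 over the 4. In 2dr the difference was -0.06 (exact permutation p = 0.943) and in 2wr -0.16 (exact permutation p = 0.8).

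For the chromosome 16 cluster, the ratio of miR-99a to let-7c differed by -0.38 in 4wd (exact permutation p = 0.0571, adjusted 0.4) and by 0.24 in 2dr (exact permutation p = 0.0571, adjusted 0.4). In each case 3 of 4 arrays lay outside the control range, on opposite sides of it. No share of all pairs was computed for such counts. Under normexp the 4wd difference was 0.01. Against miR-125b-5p, miR-99a differed by -0.15 in 4wd (exact permutation p = 0.686), with 0.02 on slide 1 and -0.32 on slide 2, and by 0.45 in 2dr (exact permutation p = 0.171).

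The compact chromosome 17 cluster gave lower mean ratios of miR-99b in 4wd, with overlap. The ratio of miR-99b to miR-125a-5p was 38.5, 46.5, 46.5 and 32.7% in control and 27.5, 39.7, 21.5 and 28.5% in 4wd, a log2 difference of -0.51 (exact permutation p = 0.0857, adjusted 0.4). The ratio to let-7e differed by -0.59 (exact permutation p = 0.257). Under normexp both turned, to 0.05 and 0.45.

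The ratio of miR-100 to miR-99a was looked at after the values were known, and is given as a description without a test. The signal of miR-100 was 90.1, 76.3, 70.5 and 79.1% of that of miR-99a in control and 44.3, 40.9, 49.1 and 55.7% in 4wd. It was 47.2, 43.7, 49.6 and 90.6% in 2dr and 57.4 and 60.2% in 2wr. Every 4wd and 2wr array lay below the lowest control array. So did 3 of 4 2dr arrays, replicate 4 being the exception. A ratio without overlap was found in 8.58% of all pairs of miRNAs between 4wd and control, and in 7.96% between 2wr and control. For the count in 2dr no share of all pairs was computed, and the 3 comparisons share the control arrays. The log2 difference from control was -0.74 in 4wd, -0.51 in 2dr and -0.42 in 2wr. In 4wd it was -0.96 on slide 1, -0.51 on slide 2 and -0.32 under normexp, and it was lower without overlap in 4 of 4 probe pairs.

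Each member was read by 2 probes, whose shares of the signal depended on the slide. For miR-125b-5p the dimmer probe gave 6.93 to 8.38% of the signal on slide 1 and 25.5 to 32.6% on slide 2. The shares were 18.5 to 22.01% and 34.2 to 36.3% for miR-125a-5p, and 24.8 to 31.7% and 39.8 to 43.6% for miR-99b. For miR-99a they were 18.3 to 20.2% and 23.3 to 24.7%, and only for miR-100 did the slides overlap, with 18.5 to 24.6% and 21.5 to 27.8%. In 4wd against control both probes gave the same sign for 4 members. They gave -0.85 and -0.53 for miR-100, 0.53 and 0.56 for miR-125a-5p, 0.28 and 0.27 for miR-125b-5p, and 0.14 and 0.12 for miR-99a. For miR-99b they gave -0.02 and 0.07. In 2dr the 2 probes had opposite signs for miR-125b-5p, at -0.61 and 0.11, and for miR-100, at -0.30 and 0.013, the dimmer probe first.

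**Figure D5:**
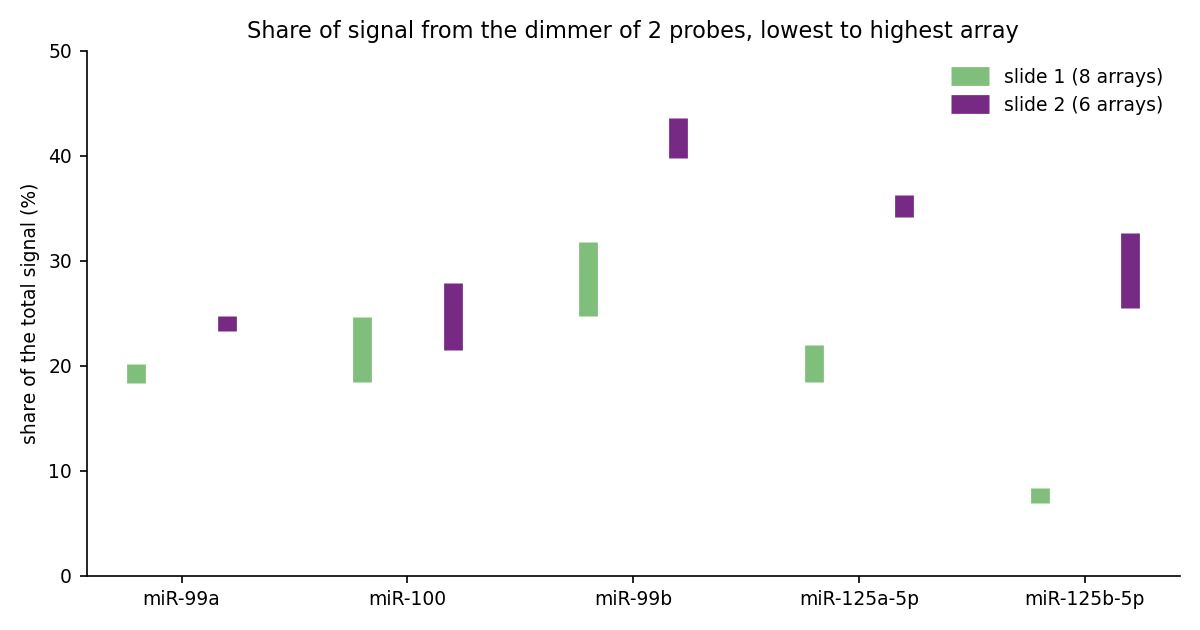
Share of a member's signal that came from the dimmer of its 2 probes (y axis, percent), from the lowest to the highest array of slide 1 (8 arrays, left bar) and slide 2 (6 arrays, right bar). The slides overlap for miR-100 alone, and miR-125b-5p moves most, from 6.93 to 8.38% to 25.5 to 32.6%.

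The miRNAs most like each member were found by Pearson's r over the 14 arrays, with the mean of each slide subtracted, among the other 169 miRNAs detected on all arrays. These correlations are descriptions over arrays that share groups, scaling and depth. Nearest to miR-100 were miR-27b (0.93), miR-151-5p (0.88) and miR-322 (0.85). Nearest to miR-125a-5p were miR-129-3p (0.91), miR-328 (0.90) and miR-433 (0.89). For miR-125b-5p they were miR-125a-5p (0.87), miR-328 (0.81) and let-7c (0.76), so that its seed partner led the list. For miR-99a they were let-7i (0.80), miR-22* (0.80) and miR-146b (0.76), and for miR-99b miR-103 (0.65), miR-24 (0.62) and miR-378 (0.60).

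Between members, miR-100 and miR-125a-5p ran in opposite directions, with an r of -0.82, rank 168 of 169 for each. The r of miR-100 was -0.54 with miR-125b-5p, -0.34 with let-7a and 0.27 with miR-99a, which ranked 39. In the compact chromosome 17 cluster, the r of miR-99b was 0.16 with miR-125a-5p and -0.14 with let-7e, while miR-125a-5p and let-7e had an r of 0.78.

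The opposite arms and the further holder of the miR-125 seed on the array were near or under the detection limit, and none was tested. On slide 2 miR-125a-3p was detected on 6 of 6 arrays, with signals of 6.52 to 16.8, and on slide 1 on 0 of 8. The arms miR-99b* and let-7a* were each detected on 3 of 14 arrays, all on slide 2. On no array were miR-125b*, miR-125b-3p, let-7c-1* or miR-351 detected, which at this signal does not show that they are absent.

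Values of marker miRNAs of the cell types in this tissue are given beside these results. In a bulk sample, fewer cells of a type and less RNA per cell cannot be told apart. The oligodendrocyte list (miR-219, miR-338-3p, miR-338-5p, miR-138) had a median log2 difference from control of -1.001 in 4wd, -0.68 in 2dr and -0.48 in 2wr, with 4 of 4 tested and 0 called. In 4wd the list ran from -2.49 for miR-338-5p, detected on only 8 of 14 arrays, to 0.31 for miR-138, which was higher. The summed signal of this list, as a multiple of the array's 75th percentile, was 11.2, 4.64, 2.81 and 5.65 in control and 3.10, 1.98, 3.54 and 3.08 in 4wd. In 2dr it was 3.60, 2.20, 2.49 and 7.01, and in 2wr 3.97 and 3.76. Control replicate 1 and 2dr replicate 4 had the highest sums of all arrays, and these arrays also had the highest levels of miR-100 and the lowest of miR-125a-5p within slide 1. On slide 2, control replicate 4 had the highest sum (5.65) and the lowest miR-125a-5p (-0.24). The highest miR-100 there was on 2wr replicate 2 (-0.05). The lowest was on 4wd replicate 3 (-0.98), whose sum (3.54) lay above those of control replicate 3 (2.81) and 2dr replicate 3 (2.49). The part of oligodendrocyte content in the miR-100 and miR-125a-5p results was not tested.

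The myeloid list (miR-142-3p, miR-142-5p, miR-155, miR-223, miR-342-3p) had median log2 differences from control of 0.96 in 4wd, 1.5 in 2dr and 1.09 in 2wr, with 4 of 5 tested and 1, 1 and 0 called higher, against 0.444%, 0.889% and 0% of all. The called miRNA was miR-155, detected on 6 of 14 arrays, and in 4wd the list ran from -0.91 for miR-223 to 2.51 for miR-155. Only miR-342-3p, at 0.23, was detected on all 14 arrays. The summed signal was 0.950 to 1.14 in control, 1.13 to 1.41 in 4wd, 1.05 to 2.43 in 2dr and 1.21 to 1.44 in 2wr. For the neuron list, all 5 of which were detected on 14 of 14 arrays, the medians were 0.06, -0.30 and -0.01, and the summed signal was 23.5 to 30.2 in control and 16.3 to 41.1 in 4wd. In 4wd the list ran from -0.39 for miR-128 to 0.76 for miR-153. It also holds miR-129-3p, the miRNA most like miR-125a-5p, at 0.34. The red blood cell list (2 of 3 tested) had medians of -0.36, -0.54 and -0.23, and the endothelial list (1 of 2 tested) -0.03, 0.03 and -0.09, with 0 called in either. On no array was miR-144, of the red blood cell list, detected. The part of these cell types in the results above was not tested.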

How the data were processed

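The miRNAs of the corpus callosum were measured on 14 single-colour Agilent arrays. In the deposited scanner files, spots and miRNAs have a linear intensity. It was made by the authors with Feature Extraction (10.5.1.1 per the file headers), which took off the background, summed the probes and called detection. Nothing was normalized between arrays. A series table deposited by the authors has log2 values for these arrays, which matched the scanner files within 0.01 for at least 559 of 560 miRNAs on 13 arrays and for 368 on 4wd replicate 1. It was used only as an alternative.

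Each total was divided by the array's 75th percentile over the 170 miRNAs that every array detected. The log2 was taken after values under 0.00176 (-9.15 as log2) were raised to it. Control spots and 10 viral miRNAs were left out. Tests covered the 225 of 566 miRNAs for which some group had detection on each of its arrays. One limma 3.58.1 fit (R 4.3.3) held all 4 groups, with Benjamini-Hochberg adjustment over the 225. Exact two-sided permutation tests were run with scipy 1.17.1. The fit was tested on simulated data, with 40 of the 225 miRNAs changed. Of 2-fold changes it recovered 42.4% in 4wd against control, 44.25% in 2dr and 27.4% in 2wr. A member without a call is therefore not shown to be unchanged. Named were the members, their let-7 partners, opposite arms, holders of a member's seed, the 3 most correlated miRNAs of each member, and marker lists. The members, lists and tests were chosen with earlier results of these data known. The number of arrays limits the precision.

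Replicate numbers, taken from the sample titles, are shared between groups, while for the 2wr arrays the source names give other numbers. Of 18 same-numbered pairs of arrays, 13 deviated together (r of residuals over 0.1) and the lowest r was -0.61. Of the 18 pairs 13 also shared a slide, and what made arrays deviate together was not tested. No pairing was assumed. No 2 arrays were closer than a median log2 difference of 0.197. The alternatives were the mean of the spots, normexp (offset 50, on the spots' median signal, as no mean signal is in the files), quantile normalization, the percentile over all mouse miRNAs, unscaled signals, 2 other filters, a floor 4 times lower, slide or replicate block, robust estimation with a trend, a fit of the compared groups alone, the methods' test, the authors' values, no fold minimum, and leaving out each array. Within-slide overlap, single probes and the ratio of miR-100 to miR-99a were chosen later, with the data in view. No other experiment of the paper was analysed here.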

Additional observations from a re-analysis of the deposited data

How the results depend on the processing

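In all 5 tests (the 4 comparisons and the overall test), 0 of 5 members were called under each alternative and with each array left out. Adjusted p-values of members over the alternatives ranged from 0.132 to 1 in 4wd, 0.228 to 1 in 2dr, 0.547 to 1 in 2wr and 0.385 to 1 in 2wr against 4wd. The median of all tested miRNAs in 4wd moved from 0.03 to 0.83 under normexp and to -0.93 without scaling. Relative to it miR-100 was at -0.63 as reported and at -1.18 under normexp, and miR-125a-5p at 0.52 and -0.33. The cause of these turns was not tested. The number of arrays, 2 in 2wr, limits what can be seen.

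Fold changes that turned in 4wd against control were miR-99a (normexp -0.031, no scaling -0.84), miR-99b (no scaling -0.93, authors' values -0.034), miR-125a-5p (no scaling -0.42) and miR-125b-5p (normexp -0.23, quantile -0.066, no scaling -0.69). In 2dr against control they were miR-99b (normexp 0.0035, percentile over all mouse miRNAs 0.027, authors' values 0.0076), miR-100 (0.013, 0.22 and 0.20 under the same 3), miR-125a-5p (percentile over all 0.18, slide block 0.036, authors' values 0.16) and miR-125b-5p (normexp -0.032, quantile -0.14, no scaling -0.40). In 2wr against control they were, without scaling, miR-99b (-0.32), miR-100 (-0.37), miR-125a-5p (-0.23) and miR-125b-5p (-0.20). In 2wr against 4wd they were miR-99b (normexp -0.40), miR-125a-5p (no scaling 0.19) and miR-125b-5p (normexp 0.43, percentile over all 0.15, quantile 0.13, no scaling 0.48, authors' values 0.15).

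With the replicate block, which is not taken as a pairing, no call changed. Its numbers are those of the sample titles, and for 2wr the source names give other numbers. In 4wd the adjusted p was 0.395 for miR-100 and 0.314 for miR-125a-5p, and the sign turned for miR-100 in 2wr against control (-0.088) and miR-125b-5p in 2wr against 4wd (0.037).

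Ratios turned under normexp in 4wd against control for miR-99a to miR-125b-5p (0.20), miR-99b to miR-125a-5p (0.048), miR-99a to let-7c (0.010) and miR-99b to let-7e (0.45), and in 2dr for miR-100 to miR-125b-5p (0.046) and miR-99b to miR-125a-5p (0.032). In 2wr against 4wd they did so for miR-99a to miR-125b-5p (-0.023), miR-100 to miR-125b-5p (-0.068), miR-99b to miR-125a-5p (-0.055), miR-99b to let-7e (-0.30) and miR-100 to miR-99a (-0.045). Within slide 1 miR-99a to miR-125b-5p turned in 4wd (0.021) and in 2wr against 4wd (-0.0037), and miR-99a to let-7c in 2wr (-0.018). Within slide 2 turns in 2wr were miR-100 to miR-125b-5p (0.19), miR-99b to miR-125a-5p (0.091) and miR-100 to let-7a (0.19). By the quantile fold changes of the members, miR-99a to miR-125b-5p also turned in 4wd (0.093 and -0.066). So did miR-100 to miR-125b-5p in 2dr (-0.072 and -0.14) and miR-99b to miR-125a-5p in 2wr (0.20 and 0.069).

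With single arrays left out, values crossed 0 in 4wd for miR-99a (-0.034 to 0.28), miR-99b (-0.081 to 0.24) and miR-99a to miR-125b-5p (-0.37 to 0.064). In 2dr they did for miR-100 (-0.33 to 0.15), miR-125a-5p (-0.25 to 0.043), miR-125b-5p (-0.074 to 0.079) and miR-100 to miR-125b-5p (-0.37 to 0.17). In 2wr they did for miR-99b (-0.10 to 0.31), miR-100 (-0.11 to 0.26) and the ratios of miR-100 to miR-125b-5p (-0.41 to 0.067) and to let-7a (-0.31 to 0.061), and of miR-99b to miR-125a-5p (-0.19 to 0.031) and to let-7e (-0.37 to 0.42). In 2wr against 4wd they did for miR-99b (-0.14 to 0.27) and miR-125b-5p (-0.15 to 0.0075).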

Other observations

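The seed partners miR-125a-5p and miR-125b-5p, whose genes lie on different chromosomes, had more alike levels across the arrays than either had with the miR-99 or miR-100 gene of its own cluster. With the slide means subtracted, r was 0.87 between them over the 14 arrays (0.89 on the 8 arrays of slide 1 and 0.87 on the 6 of slide 2), while it was 0.16 between miR-125a-5p and miR-99b, -0.54 between miR-125b-5p and miR-100 and 0.13 between miR-125b-5p and miR-99a. With the let-7 miRNAs of their clusters r was higher, at 0.78 between miR-125a-5p and let-7e, 0.76 between miR-125b-5p and let-7c and 0.58 between miR-125b-5p and let-7a. For miR-125a-5p its seed partner ranked 4, after miR-129-3p (0.91), miR-328 (0.90) and miR-433 (0.89), so the likeness was not particular to the pair. The seed partners share their first 13 bases, and how far their probes tell them apart was not tested. These are descriptions without a test, over arrays that share groups and scaling.

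In groups of 4 arrays, 33 sets of levels and ratios were searched with Dixon's criterion for a single outlying array, and 0 were found, so replicate 4 of 2dr does not pass it for miR-100. With 4 arrays from 2 slides the criterion finds only very extreme values, so this does not show that the array is ordinary.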
